A study of Mus musculus with 21 samples.

Results

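The 10 genes described here encode RUNX and ETS transcription factors of blood formation. They are Runx1, Runx2, Runx3 and their partner Cbfb, and the ETS genes Fli1, Erg, Etv6, Ets1, Ets2 and Elf1. They were chosen by symbol, through the RefSeq accession of each array probe, and are 10 of the 18217 genes with a symbol on the array. In each case some fraction had the probe well above background on its 3 arrays, so all 10 were tested. Each gene is described by its brightest probe over the 21 arrays unless stated.

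RNA was measured on 1-colour arrays, 3 for each of 7 fractions that were sorted out of C57BL/6 mouse bone marrow. No fraction carried a transgene or a treatment, and the labels give neither the age of the mice nor whether replicates came from separate animals, so that p-values measure the spread between these samples, which may be technical. KLS (lin- ckit+ sca1+) holds multipotent progenitors. On the erythroid side follow PreMegE (CD150+ CD105- FCGrI/II-), CFUe and Ter119 (CD71+ Ter119+), and on the myeloid side PreGM, GMP (CD150- FCGrI/II+) and Mac1Gr1 (Mac1+ Gr1+). CFUe and PreGM carry the same gate in the labels (CD150- CD105- FCGrI/II-), but their transcripts differed: 7 erythroid marker genes had an array mean between 1.44 and 1.54 in CFUe and between -3.00 and -2.54 in PreGM. Levels are log2 intensity minus the 75th percentile of the array, so that 0 is the 75th percentile, and are compared between fractions and never between probes. In such sorted bulk samples, fewer cells of a type and less RNA per cell cannot be told apart.

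RUNX proteins bind DNA through the Runt domain, and CBFB, which does not bind DNA itself, stabilises that contact. RUNX1 is needed for the first definitive blood stem cells of the embryo and later for platelet formation and lymphocytes. RUNX2 is best known as the master factor of bone and RUNX3 for its work in T cells. ETS proteins share a winged helix domain that reads a GGAA core. FLI1 and ERG are close relatives that act in stem cells and megakaryocytes, ETV6 is a repressor needed by adult stem cells, and ETS1, ETS2 and ELF1 are used widely in lymphoid and myeloid cells.

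The RUNX genes carry RUNX motifs beside their own starts, and the stretches below are shown because this is the feature that the genes share. Windows from 250 bases before to 50 bases after a start were taken from RefSeq (GRCm38.p6), where 8 of the 10 genes had 13 windows. The first listed start of each RUNX gene held the letters ACCACA in tandem, with 2 bases between them, here in capitals, 5′ to 3′ on the strand of the gene.
Runx1 (chr16:92826025-92826054, minus strand, motif from base 29 after the start): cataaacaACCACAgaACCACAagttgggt
Runx2 (chr17:44814583-44814612, minus strand, motif from base 24 after the start): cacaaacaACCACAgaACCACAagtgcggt
Runx3 (chr4:135120503-135120532, plus strand, motif at -134 from the start): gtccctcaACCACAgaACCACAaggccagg
This tandem, with any 2 bases between and on either strand, occurred in 7 of 32851 windows (0.021%), and 3 of the 7 were these. The single letters ACCACA occurred in 16.8% of all windows and in the same 3 of the 13 member windows, and neither the second start of Runx1 nor that of Runx3 held them. The spacing was chosen after these windows had been read, so its rarity is a description. The ETS core GGAAG was in 71.4% of all windows and 9 of the 13. The longer GGAAGTG was in 11.0% of all windows and in 1 member window, that of Cbfb, which held it at 2 places:
Cbfb (chr8:105170462-105170490, plus strand, motif at -201 from the start): gacaggcaaggGGAAGTGctgaggaagga
Cbfb (chr8:105170667-105170695, plus strand, motif from base 5 after the start): gggcggcgagaGGAAGTGgcggccgcagc
A match is a run of letters and no measured binding site.

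Over the 7 fractions the genes moved in different ways, which can be told in 3 descriptive groups formed after their values were seen. Runx2, Fli1, Erg and Cbfb had their lowest mean in CFUe and were higher again in Ter119, except that Cbfb was not (-0.02) with scaling to the spike-in probes. Runx1, Runx3, Etv6 and Elf1 were high in KLS and the early progenitors and low in the mature fractions of both sides. However, a second probe of Runx1 and of Runx3 went the other way in Ter119, and that of Runx1 also in Mac1Gr1. Ets1 and Ets2 were highest in Mac1Gr1, level with Ter119 on another Ets1 probe, except that Ets2 there changed by -0.39 from GMP with scaling to the spike-in probes. Ets1 shared the lowest mean in CFUe (-2.43) and the higher one in Ter119 (1.94) with the first group. Elf1 was lowest in CFUe too (0.57), but not apart from Ter119 (0.62). The span from the highest to the lowest fraction mean was smallest in Elf1 (1.22 on the log2 scale, where 13.2% of the genes had a smaller span), 5.32 in Fli1, and at least 6.01 in Runx2, whose CFUe signals were not well above background.

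**Figure D1:**
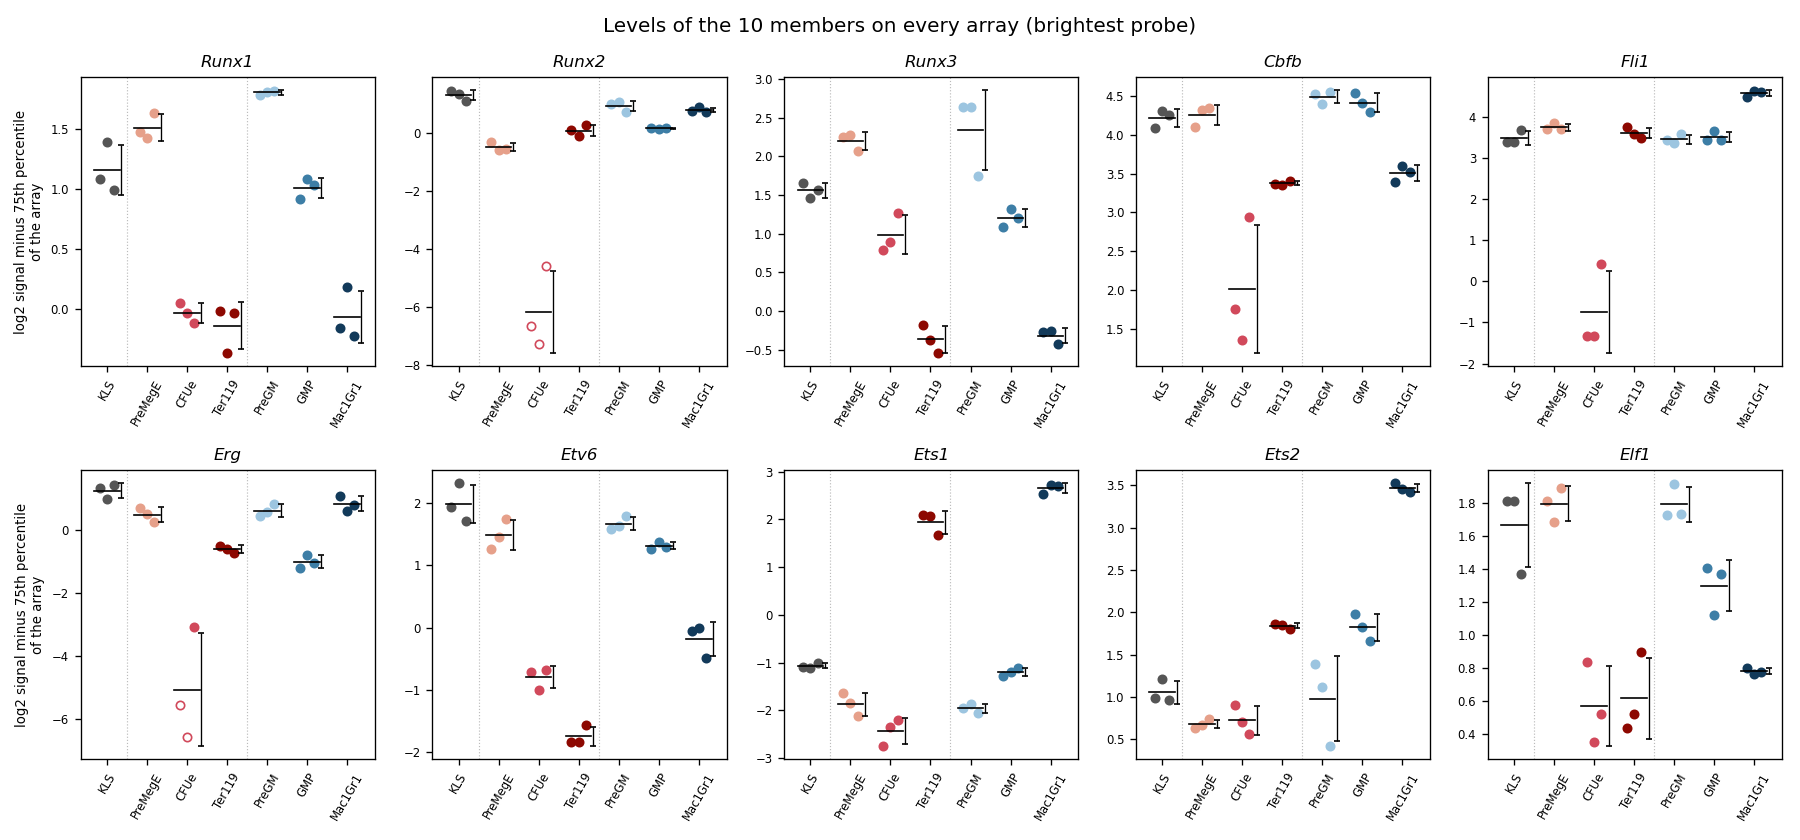
Level of each of the 10 genes (y axis, log2 intensity minus the 75th percentile of the array, with a scale of its own in each panel) on every array of the 7 fractions (x axis). Points are arrays, open where the probe was not well above background, the horizontal line is the mean and the bar 1 SD over 3 arrays. Runx2, Cbfb, Fli1 and Erg lay lowest in CFUe, where 1 of the 3 arrays stood above both others, except that Cbfb in Ter119 was as low (-0.02) with scaling to the spike-in probes. Ets1 and Elf1 also had their lowest mean in CFUe, Elf1 level with Ter119.

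Some arrays carry transcripts that touch the results. The Ter119 arrays held granulocyte, B cell and T or NK cell transcripts beside their erythroid ones. All 10 granulocytic markers were well above background on all of them, with an array mean of 7.72 to 7.86 against -3.86 to -1.66 in CFUe and 8.78 to 8.98 in Mac1Gr1. The 6 B cell markers had a mean of 2.36 to 2.88 in Ter119 and the 9 T and NK markers -0.09 to 0.02, against at most -3.31 and -4.63 in CFUe. Mac1Gr1 held lymphoid transcripts too, with a B cell mean of 0.31 to 1.1 against at most -2.80 in GMP. Its T and NK mean was -2.43 to -2.12, against at most -3.69 in GMP. In CFUe replicate 3, 7 of the 10 genes lay above both other CFUe arrays and 2 below both, shares not counted over all probes. Over all 10 genes this array differed from the others by a median of 0.38, against 0.03 over all probes tested. Its granulocytic mean was -1.66 against -3.86 and -3.65, and its mean over 5 stem cell markers was -4.24 against -5.73 and -5.60, while its erythroid mean of 1.54 was close to that of replicate 2. The part of these transcripts in the results below was not tested. KLS in turn held macrophage transcripts, with a mean of 1.11 to 2.58 over 6 markers.

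The arrays also differed in sex chromosome transcripts, which the labels do not mention. Ddx3y, Kdm5d, Eif2s3y and Uty, on the Y chromosome, were all well above background on every array of KLS, PreMegE and Ter119, with a mean over the 4 of -0.48 to -0.18. None was so on any array of GMP or Mac1Gr1 (at most -6.41), where Xist, the RNA of the inactive X chromosome, stood at 3.90 to 5.10. CFUe and PreGM were split. In CFUe the Y-linked mean was -6.48 and -6.91 in replicates 1 and 2 and -0.34 in replicate 3, and in PreGM it was -6.82, -6.87 and, in replicate 3, -0.50. The 4 arrays low in the Y-linked genes held Xist at 4.91 to 5.61, and in CFUe replicate 3 and PreGM replicate 3 it was at -4.47 and -6.71. Every comparison with CFUe or PreGM therefore mixes this difference with the fraction in part, and Ter119 against Mac1Gr1 does so in full. Counts within arrays alike in these transcripts, chosen after seeing the data, are given where they differ.

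**Figure D2:**
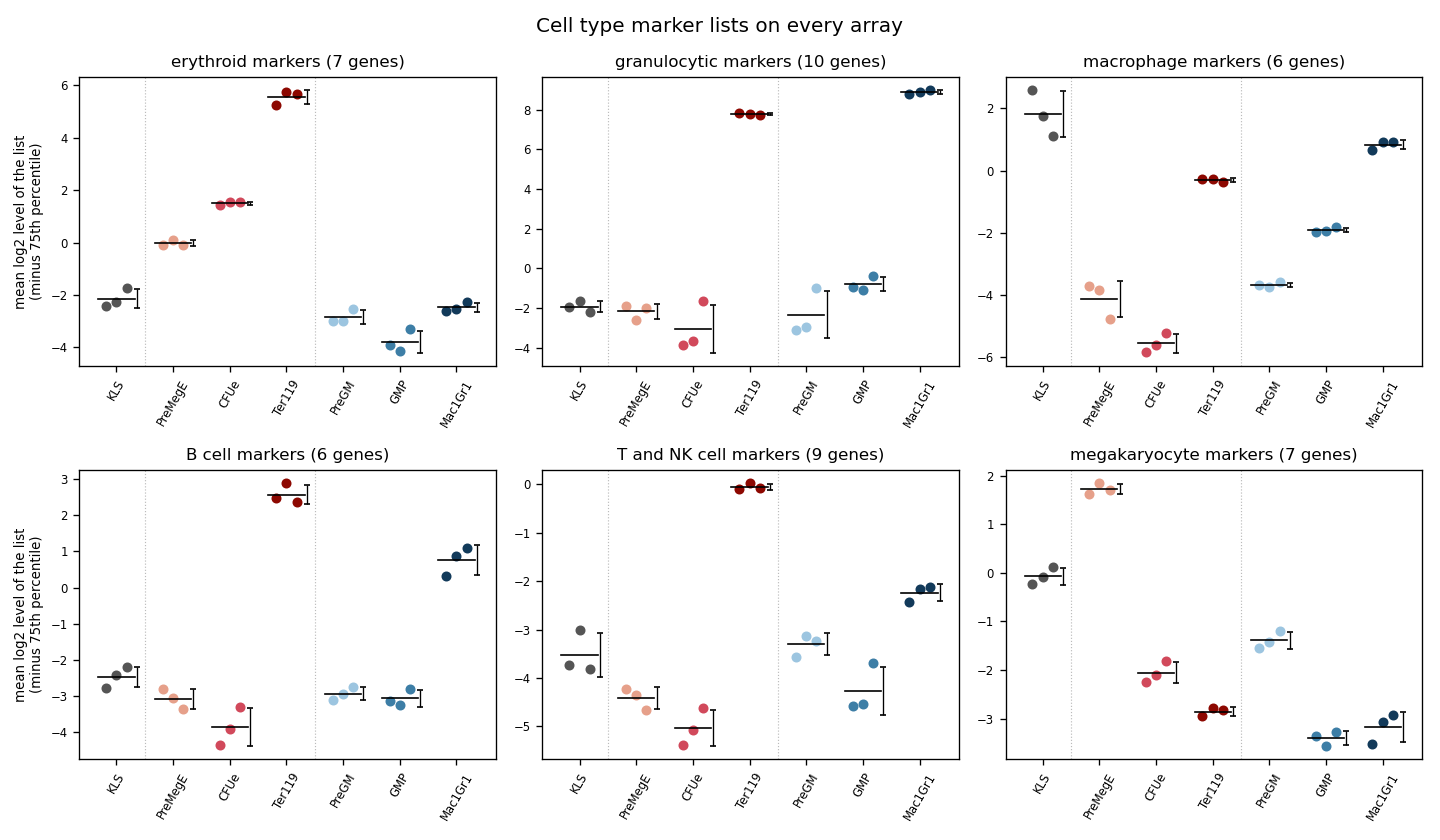
Mean level of 6 cell type marker lists (y axis, log2 intensity minus the 75th percentile of the array) on every array of the 7 fractions (x axis), with the mean and 1 SD over 3 arrays. Granulocytic markers had means of 7.72 to 7.86 in Ter119, near the 8.78 to 8.98 of Mac1Gr1, and CFUe replicate 3 lay above the other CFUe arrays.

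The step from PreMegE to CFUe lowered most of these genes. Of the 10, 8 were called lower and none higher, where a call needs an adjusted p below 0.05 together with a 2-fold change or more. Of all probes tested 24.7% were called at this step, 14.7% lower and 9.96% higher. The median change was -1.90 against 0.12 over all probes. Ets1 and Ets2 were the genes not called. The count was 8 as well without CFUe replicate 3 and with the slide as a block, and 9 with scaling to the spike-in probes. It was 7 with CFUe replicate 3 alone for CFUe, the array that shares the Y-linked transcripts of PreMegE, Runx3 being short of 2-fold (-0.93). A lone array is assumed to vary like the other fractions.

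FLI1, an ETS factor of stem cells and megakaryocytes, showed the change most plainly. Its levels were 3.39, 3.38 and 3.68 in KLS, 3.71, 3.85 and 3.70 in PreMegE, and -1.32, -1.32 and 0.41 in CFUe. No CFUe array came near the others, and replicate 3 was the highest of the 3. The change from PreMegE to CFUe was -4.49 ± 0.31 (SE), a 22.6-fold lower signal (adjusted p = 4.02e-09), and it was -5.07 without CFUe replicate 3. On the slide that held an array of both fractions the difference was -5.03, and with CFUe replicate 3 alone it was -3.34. The second Fli1 probe followed the first (r = 0.997 over 7 means), with -1.76, -1.91 and -0.37 in CFUe.

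Erg behaved in the same direction. Its levels were 1.32, 0.98 and 1.42 in KLS, 0.70, 0.51 and 0.23 in PreMegE, and -5.54, -6.56 and -3.09 in CFUe. The probe was well above background on 1 of the 3 CFUe arrays, replicate 3, so that the change of -5.55 ± 0.53 (adjusted p = 2.22e-07) rests partly on dim signals. Without replicate 3 no CFUe signal was well above background and Erg was at least 38.5-fold lower, and within the shared slide at least 53.4-fold. With replicate 3 alone the change was -3.58.

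The brightest Runx2 probe was measured in every fraction except CFUe. It stood at 1.42, 1.35 and 1.09 in KLS and at -0.33, -0.61 and -0.56 in PreMegE, and its signals of -6.68, -7.30 and -4.61 in CFUe were not well above background. It was therefore at least 18.7-fold lower in CFUe than in PreMegE (adjusted p = 1e-08). Of its 3 other probes, the tested pair followed the brightest (r = 0.999 and 0.970) and the remaining one was too dim to test. The size of the change depended on the probe. One of the pair was likewise dim in CFUe and at least 11.1-fold lower. The other (A_52_P460545) was well above background on 2 of the 3 CFUe arrays, at -4.92, -3.42 and -3.96 against -1.90, -1.96 and -2.07 in PreMegE, and was 4.35-fold lower (-2.12 ± 0.25, adjusted p = 2.17e-06).

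Cbfb, the shared partner, gave 4.11, 4.32 and 4.34 in PreMegE and 1.75, 1.35 and 2.94 in CFUe. All CFUe arrays lay below all PreMegE arrays, with replicate 3 again the highest. The change was -2.24 ± 0.26 (adjusted p = 1.49e-06), or -2.71 without that array and -1.32 with it alone. Etv6 followed with 1.27, 1.45 and 1.74 in PreMegE against -0.72, -1.002 and -0.68 in CFUe, a change of -2.29 ± 0.17 (adjusted p = 1.15e-08). Here replicate 3 did not stand apart.

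Runx1 gave 1.48, 1.43 and 1.64 in PreMegE and 0.05, -0.03 and -0.12 in CFUe, so that the groups did not overlap. The change was -1.55 ± 0.13 (adjusted p = 5.7e-08), but on its second probe it was -0.20 ± 0.16 (adjusted p = 0.332). Runx3 fell by 1.21 on the log2 scale (SE 0.19, adjusted p = 5.7e-05), from 2.25, 2.27 and 2.06 to 0.79, 0.90 and 1.27, and its second probe changed by -0.60, short of 2-fold. Elf1 fell by 1.22 on the log2 scale (SE 0.15, adjusted p = 4.45e-06), from 1.81, 1.68 and 1.89 to 0.83, 0.36 and 0.52.

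Ets1 and Ets2 differed from the rest at this step. Ets1 went from -1.64, -1.85 and -2.12 to -2.74, -2.34 and -2.21, a change of -0.56 ± 0.15 that passed the p threshold (0.00516) and not the fold. On both other Ets1 probes the change was larger, at -1.42 ± 0.15 and at least 2.17-fold, and was called lower. Ets2 gave 0.63, 0.67 and 0.73 in PreMegE and 0.90, 0.70 and 0.56 in CFUe. These overlapped, with a difference of 0.04 and a 95% interval from -0.33 to 0.42.

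On the myeloid side the matching step, from PreGM to GMP, called 2 of the 10 genes, both lower, where 10.4% of all probes tested were called, 6.36% lower and 4.01% higher. Runx3 changed by -1.13 ± 0.19 (adjusted p = 0.000328) and Erg by -1.61 ± 0.53 (adjusted p = 0.0342). Erg stood at 0.43, 0.56 and 0.82 in PreGM and at -1.20, -0.78 and -1.05 in GMP. The groups did not overlap, but its call was lost whichever of the 6 arrays was left out (adjusted p from 0.0594 to 0.101). The call of Runx3 was lost without PreGM replicate 1 or 2 (-0.98 and -0.99), and PreGM replicate 3, at 1.75 against 2.64 and 2.63, was the low array. That array also had a granulocytic mean of -0.97 against -3.11 and -2.94, whose part was not tested, and it is the array with Y-linked transcripts. Ets1, 0.76 higher in GMP on its brightest probe (adjusted p = 0.00123), rose by more than 2-fold on both its other probes (2.15 ± 0.30, adjusted p = 5.41e-05, and 1.25 ± 0.15, adjusted p = 1.34e-05). Scaling to the spike-in probes, which put the median of all probes at 0.99 at this step, ended the calls of Runx3 and Erg.

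On their brightest probes, Fli1 and Cbfb changed on the erythroid side and not detectably on the myeloid one. Fli1 was at 3.44, 3.36 and 3.58 in PreGM and at 3.44, 3.65 and 3.44 in GMP, and the difference of 0.05 had a 95% interval from -0.60 to 0.70. Cbfb was at 4.52, 4.39 and 4.55 and then at 4.54, 4.41 and 4.30, with an interval from -0.61 to 0.47. Its second probe was lower in GMP (-0.63 ± 0.19, adjusted p = 0.0242), without overlap and short of 2-fold. The sign of the brightest Cbfb probe turned with scaling to the spike-in probes. On the brightest probes neither gene left its PreGM range by more than the spread of the arrays, in contrast with the erythroid side. The difference between the sides was tested in the same fit as an interaction: it was called for 6 of the 10 genes, where 20.2% of all probes were called. It was -4.54 for Fli1, -3.46 or lower for Runx2 (with CFUe at its bound), -3.93 for Erg, -2.17 for Cbfb, -1.93 for Etv6 and -1.32 for Ets1, and the count was 6 without CFUe replicate 3 too, and 6 within arrays alike in Y-linked transcripts. For Runx3 the erythroid and myeloid changes were -1.21 and -1.13, and their difference of -0.07 ± 0.27 did not pass (adjusted p = 0.864).

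The lineage comparison CFUe against GMP gave 8 of the 10 genes called lower in CFUe and none higher, with 26.3% of all probes called, 14.2% lower and 12.1% higher. Runx2 was at least 29.3-fold lower, Fli1 19.04-fold and Erg, with 1 of 3 CFUe arrays well above background, 16.6-fold. Runx3 and Elf1 were not called, the former with 0.79, 0.90 and 1.27 in CFUe and 1.09, 1.32 and 1.21 in GMP. This comparison shares its CFUe arrays with the step before, so the 2 counts are not separate evidence.

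**Figure D3:**
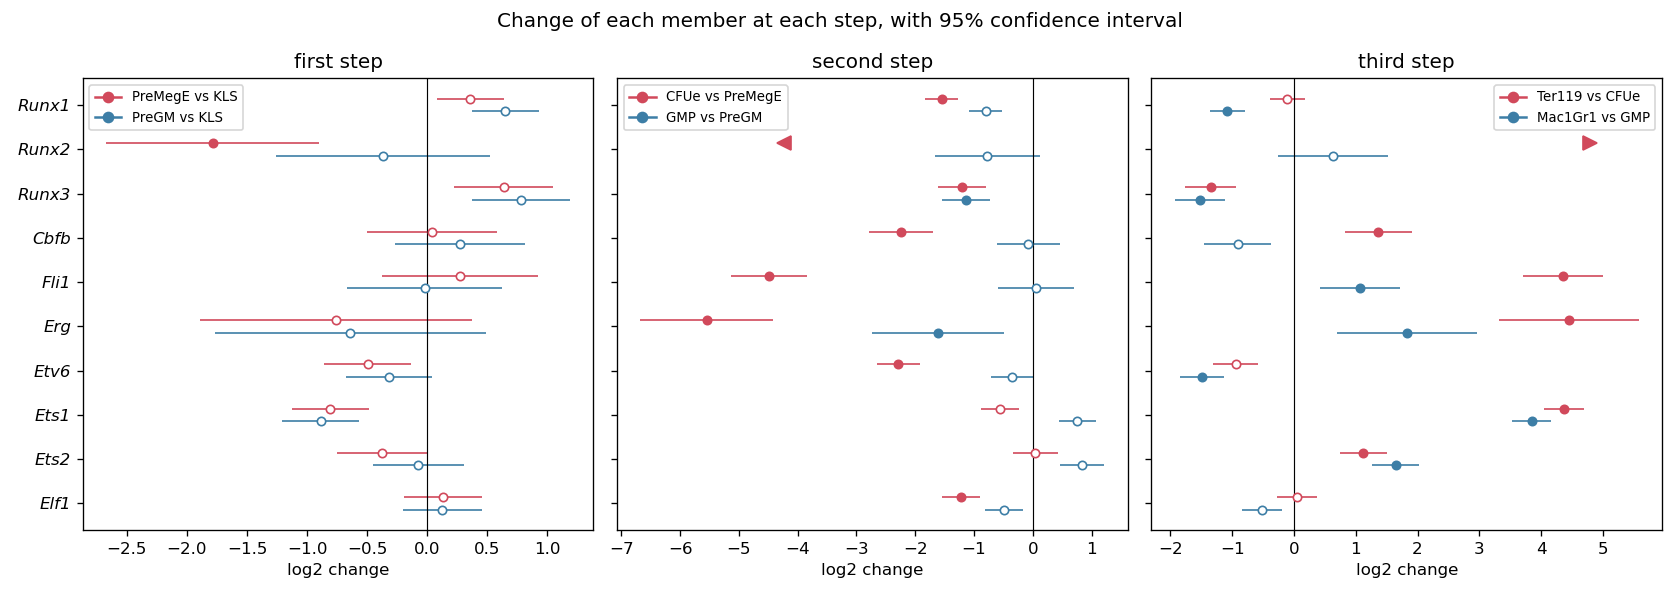
Log2 change (x axis) of each of the 10 genes (y axis) at the 3 erythroid steps (red) and the 3 myeloid steps (blue), with 95% confidence intervals from limma. Filled points were called, and triangles mark lower bounds of the change, for Runx2 where CFUe was not well above background. Runx2, Fli1, Erg and Cbfb fell at the second erythroid step and were higher at the third, except that Cbfb at the third step was -0.02 with scaling to the spike-in probes, which also turned Runx2, Fli1, Erg and Ets2 at the third myeloid step and Ets2 and Elf1 at the third erythroid step.

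From CFUe to Ter119, 6 of the 10 genes were called higher and 1 lower, where 57.2% of all probes were called, 29.2% higher and 28% lower. Most of the transcriptome moved at this step, and the count of 7 among the 10 genes has to be read against that share. Ter119 also holds the granulocytic and lymphoid transcripts given above. Fli1 was at 3.75, 3.60 and 3.49 in Ter119, 4.36 ± 0.31 above CFUe (adjusted p = 7.9e-10) and not apart from PreMegE beyond the spread (adjusted p = 0.689). Erg was at -0.50, -0.59 and -0.75, 4.45 ± 0.53 above CFUe (adjusted p = 8.04e-07), a size that rests partly on dim signals. Its probe was well above background on 1 of the 3 CFUe arrays. Runx2, at 0.09, -0.13 and 0.25, was at least 27.8-fold above CFUe. All 3 kept their calls with scaling to the spike-in probes, Fli1 at 2.97 and Erg at 3.07, although that scaling moved the median of all probes to -1.33.

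Cbfb was at 3.36, 3.36 and 3.41 in Ter119, below the arrays of PreMegE and above those of CFUe. Its change of 1.36 ± 0.26 (adjusted p = 0.000123) fell to -0.02 with scaling to the spike-in probes, and to 0.44, no longer called, against CFUe replicate 3 alone. Ets2, at 1.87, 1.85 and 1.81, was 1.12 ± 0.18 above CFUe (adjusted p = 2.2e-05), and -0.26 with that scaling.

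Ets1, known for its part in lymphocytes, had the largest of its 9 changes at this step. It was at 2.08, 2.08 and 1.67 in Ter119, 4.37 ± 0.15 above CFUe (adjusted p = 1.17e-13), and all arrays of Ter119 lay above all arrays of KLS (-1.08, -1.10 and -1.01). The change was 2.99 with scaling to the spike-in probes, and both other probes rose with it. The 9 T and NK markers were all called higher at the same step, and their part was not tested.

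The remaining genes fell or did not pass. Runx3 was at -0.19, -0.37 and -0.54 in Ter119, -1.35 ± 0.19 from CFUe (adjusted p = 6.66e-06). Etv6, at -1.84, -1.83 and -1.56, changed by -0.94 ± 0.17, just short of 2-fold. Runx1 was at -0.02, -0.37 and -0.04 and Elf1 at 0.44, 0.52 and 0.90, each overlapping its CFUe arrays.

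From GMP to Mac1Gr1, 4 of the 10 genes were called higher and 3 lower, with 56.7% of all probes called, 29.1% higher and 27.6% lower. Ets1 rose from -1.27, -1.20 and -1.12 to 2.54, 2.72 and 2.70, a change of 3.85 ± 0.15 (adjusted p = 4.68e-13) that was 1.82 with scaling to the spike-in probes. At this step all 6 B cell markers and 5 of the 9 T and NK markers were called higher, where 57.7% of genes were called. Their part was not tested. Ets2, whose product acts below the MAP kinases in macrophages, went from 1.97, 1.83 and 1.66 to 3.52, 3.46 and 3.42, 1.65 ± 0.18 higher (adjusted p = 2.28e-07). It turned to -0.39 with the spike-in probes, which put the median of all probes at -1.86. Fli1, at 4.49, 4.63 and 4.60 in Mac1Gr1, was 1.07 ± 0.31 above GMP (adjusted p = 0.00463), close to the 2-fold limit, and Erg, at 1.07, 0.60 and 0.78, was 1.83 ± 0.53 above it (adjusted p = 0.00527). Both turned, to -0.97 and -0.20, with that scaling. On the second Fli1 probe the change was 0.74 ± 0.27 (adjusted p = 0.0181), short of 2-fold and not called.

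The genes called lower in Mac1Gr1 were Runx1, Runx3 and Etv6, on the brightest probe. None of these was called lower on its second probe. There Runx1 was called higher (1.08 ± 0.16, adjusted p = 1.22e-05), Runx3 changed by 0.18 and Etv6 by -0.93, short of 2-fold. Etv6 went from 1.27, 1.38 and 1.29 in GMP to -0.05, 0.00 and -0.49, a change of -1.49 ± 0.17 (adjusted p = 4.4e-07). Runx3 went from 1.09, 1.32 and 1.21 to -0.27, -0.26 and -0.43, a change of -1.52 ± 0.19 (adjusted p = 1.65e-06). Runx1 went from 0.92, 1.08 and 1.03 to -0.16, 0.18 and -0.23, a change of -1.08 ± 0.13 (adjusted p = 1.09e-06) that was -0.999 and no longer called without Mac1Gr1 replicate 3. No array of the mature fraction overlapped GMP in any of these genes, nor did one in the other 7. How many of all probes were likewise without overlap was not counted, so this marks no trait of the 10 genes.

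The third-step changes of the 2 sides differed for 4 of the 10 genes, with 39.9% of all probes called. The erythroid change exceeded the myeloid one by at least 4.17 for Runx2 (with CFUe at its bound), by 3.29 for Fli1, 2.62 for Erg and 2.28 for Cbfb. With CFUe replicate 3 alone the Erg difference was 0.65 and not called (adjusted p = 0.0862). Between the mature fractions themselves, which hold opposite sex chromosome transcripts, 3 of the 10 genes were called, all lower in Ter119 than in Mac1Gr1, where 41.9% of all probes were called, 22% higher and 19.9% lower. Ets2 was lower by 1.63 ± 0.18 (adjusted p = 5.26e-07), Etv6 by 1.56 ± 0.17 (adjusted p = 4.8e-07) and Erg by 1.43 ± 0.53 (adjusted p = 0.0262), the last lost without Ter119 replicate 2, Ter119 replicate 3 or Mac1Gr1 replicate 1 (0.0529, 0.0654 and 0.0769). With the Y-linked transcripts as a block, which takes their effect from the split within CFUe and within PreGM, 5 were called, Runx2 (-1.74) and Fli1 (-1.92) in addition. That split sets CFUe replicate 3 and PreGM replicate 3 apart, which also had higher granulocytic means than the other arrays of their fractions. The block cannot tell these differences apart.

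At the first steps few of these genes were called, as were few of all probes. From KLS to PreMegE 1 of the 10 was called, Runx2, with 12.4% of all probes called, 8.86% lower and 3.55% higher. It was 1.79 ± 0.42 lower (adjusted p = 0.00406), and no PreMegE array reached KLS, although with the slide as a block the change was -0.69 and not called. Both other Ets1 probes were called lower too (-1.69 and -1.04), where the brightest changed by -0.81. From KLS to PreGM none of the 10 was called by limma, against 8.63% of all probes (6.52% lower and 2.11% higher), while 3 passed the p threshold alone. These were Ets1 (-0.89 ± 0.15, adjusted p = 0.000426), Runx1 (0.65 ± 0.13, adjusted p = 0.00185) and Runx3 (0.78 ± 0.19, adjusted p = 0.00724). On both other Ets1 probes the change from KLS to PreGM passed the fold as well and was called lower (-1.91 ± 0.30, adjusted p = 0.000246, and -1.09 ± 0.15, adjusted p = 8.77e-05). Between PreMegE and PreGM, where 12% of all probes were called (6.23% lower and 5.81% higher), Runx2 was the 1 gene called, lower in PreMegE by 1.42 ± 0.42 (adjusted p = 0.0177), and leaving out any of 4 arrays took it past the threshold (0.0516 to 0.0583), as did PreGM replicate 3 alone (-1.21, adjusted p = 0.254).

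For Runx1 and Runx3 the direction depended on the probe, as the size did for Runx2 and Ets1. The second Runx1 probe (A_52_P202358, beside A_51_P206585) was well above background on all 21 arrays and was annotated to another Runx1 transcript. It gave -0.09, 0.22 and 0.04 in CFUe but 1.64, 1.22 and 2.06 in Ter119, and -0.33, -0.30 and -0.16 in GMP but 0.74, 0.91 and 0.82 in Mac1Gr1. It was thus higher in both mature fractions, by 1.58 ± 0.16 (adjusted p = 1.21e-07) and 1.08 ± 0.16 (adjusted p = 1.22e-05), where the brighter probe changed by -0.11 ± 0.13 and -1.08 ± 0.13. Over the 7 fraction means the 2 probes had r = -0.588.

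The second Runx3 probe (A_51_P494992, beside A_52_P666059) carried the same transcript annotation as the first. Its levels were -1.27, -1.11 and -1.05 in CFUe and 0.74, 0.02 and 0.38 in Ter119, a change of 1.52 ± 0.18 (adjusted p = 8.11e-07), opposite to the -1.35 of the brighter probe. In Mac1Gr1 it did not follow, at -0.80, -1.29 and -0.96. The place of these probes along the transcripts was not given in the sources used here, and whether they read different transcripts was not tested. In the other genes with further tested probes r lay between 0.862 and 0.999.

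**Figure D4:**
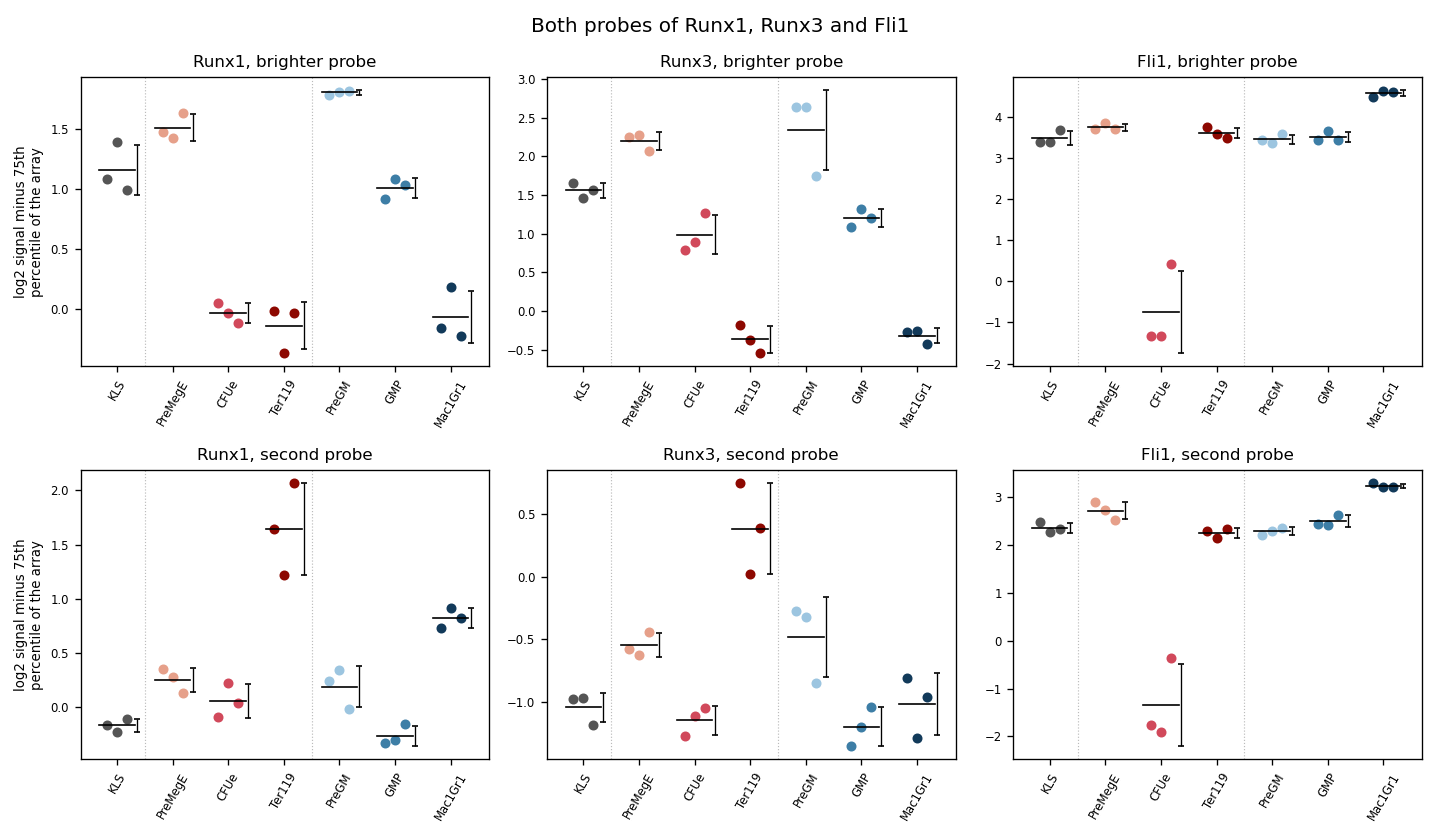
Levels of 2 probes each of Runx1, Runx3 and Fli1 (y axis, log2 intensity minus the 75th percentile of the array) on every array of the 7 fractions (x axis), brighter probe above and second probe below, with the mean and 1 SD over 3 arrays. The second probes of Runx1 and Runx3 were highest in Ter119, where the brighter ones were lowest, while both Fli1 probes had the same form.

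Each gene had its own order of fractions, given here for the main scaling. Fli1 was highest in Mac1Gr1 (4.57), which differed from the next, PreMegE (adjusted p = 0.0224), while PreMegE, Ter119, GMP, KLS and PreGM, from 3.75 down to 3.46, did not differ between neighbours. Runx2 and Erg were both highest in KLS, and no neighbours in either order differed until CFUe. Cbfb was level from PreGM (4.49) to KLS (4.22), then lower in Mac1Gr1 (3.50) and Ter119 (3.37), which did not differ from each other, and lowest in CFUe. Etv6 stepped down from GMP (1.31) to Mac1Gr1 (-0.18), CFUe (-0.80) and Ter119 (-1.74), each differing from the next. Runx1 split into a high set (PreGM, PreMegE, KLS and GMP) and a low set (CFUe, Mac1Gr1 and Ter119), with no difference between neighbours inside either. Beyond neighbours, the high set was not level: PreGM minus KLS was 0.65 and GMP minus PreGM -0.80, both without overlap. The second Runx1 probe, highest in Ter119, did not show this split. Runx3 was highest in PreGM and PreMegE, middling in KLS, GMP and CFUe, and lowest in Mac1Gr1 and Ter119. Elf1 dropped below GMP in Mac1Gr1, Ter119 and CFUe, whose neighbours did not differ. Ets1 and Ets2 both led with Mac1Gr1 and then Ter119, which differed from each other in each gene on the brightest probe (on the other Ets1 probes Ter119 minus Mac1Gr1 was 0.03 and -0.35, adjusted p = 0.944 and 0.0555), and Ets2 in Ter119 did not differ from GMP.

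The fraction means of some genes ran in parallel. As a description over 7 points that share their arrays, Pearson's r was 0.954 for Runx2 and Erg, 0.949 for Runx2 and Fli1, and 0.929 for Fli1 and Erg, values that rest largely on the low CFUe point, which for Runx2 is a dim signal. It was 0.976 for Runx1 and Elf1, 0.934 for Etv6 and Elf1, and 0.876 for Ets1 and Ets2, and lowest at -0.870 for Runx3 and Ets1. Among 14281 other genes, the 3 most like Fli1 were Vim (r = 0.995), Arl6ip1 and Micall1, those most like Erg were Itih5 (0.988), Sox13 and Tbxas1, and those most like Runx2 were Wdfy4 (0.987), Stat4 and Micall1. Cbfb was most like Atp8a2 (0.993), Lxn and Slc35e4. Runx1 was most like Rfx7 (0.982), Ajuba and Elf1 itself, Runx3 like Zfp358 (0.980), Tnfrsf12a and Cux1, Elf1 like Rfx7 (0.989), Fgf3 and Gbx2, and Etv6 like Saraf (0.989), Tnip2 and Abca2. Ets1 was nearest to Cd300lf (0.995), Gabre and Chil1, and Ets2 to Lrrc8d (0.997), Aacs and Rasa2. As many as 851 genes had r over 0.9 with Ets1, and 96 with Erg.

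**Figure D5:**
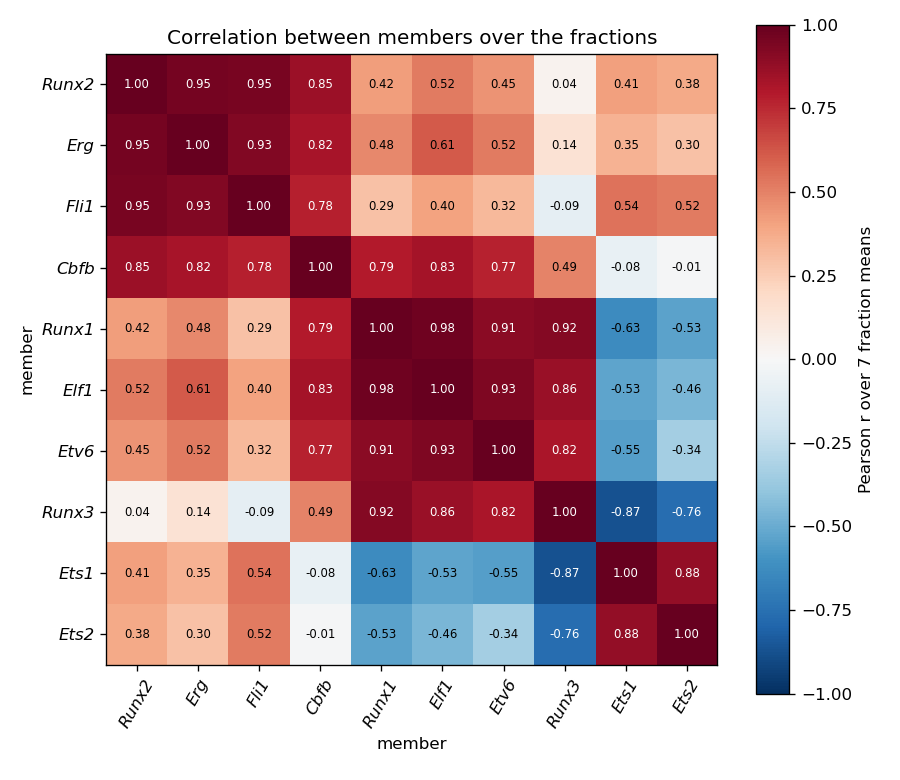
Pearson correlation between the 10 genes (both axes) over the 7 fraction means of the brightest probe, from blue (-1) to red (1). Runx2, Erg, Fli1 and Cbfb form one block, with r of 0.78 to 0.95, and Runx1, Elf1, Etv6 and Runx3 another, with r of 0.82 to 0.98, and Cbfb ran as close to Elf1 (0.83), Runx1 (0.79) and Etv6 (0.77) of the second.

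Other ETS genes were set beside these. Of 20 listed, 19 had a probe and 15 were tested, and from PreMegE to CFUe 6 of the 15 were called lower and 1 higher, where 25.9% of genes were called. Spi1, which encodes PU.1, fell by 3.85 on the log2 scale (SE 0.36, adjusted p = 1.52e-07; 1 of 3 CFUe arrays well above background) and Elk3 by 3.48 (1 PreMegE spot left out as an outlier), beside Elf4, Spic, Etv1 and Etv3. Fev was the one called higher (adjusted p = 0.0476), but PreMegE replicate 2 was at -7.09, not well above background, beside -2.20 and -3.21, and the CFUe arrays, at -2.43, -1.82 and -2.46, overlapped these. Gabpa, Elf2 and Erf, ETS genes of broad use, were not called there. From CFUe to Ter119, 8 of the 15 were called higher and 2 lower, Erf and Gabpa, where 61.2% of genes were called. Spib, an ETS factor of B cells, was 9.21 higher in Ter119, where the B cell markers stood at 2.36 to 2.88. With 2 of 3 CFUe arrays well above background, this size rests partly on a dim signal. The Spib mean also went from -3.25 in GMP to 2.10 in Mac1Gr1.

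RUNX corepressors took other courses. Of 7, 3 were called lower from PreMegE to CFUe, where 25.9% of genes were called. Among them was Runx1t1, which no CFUe array and 1 of 3 PreMegE arrays had well above background, so that its call compares dim signals. From CFUe to Ter119 2 were called higher and 2 lower, near the 61.2% of all genes. Cbfa2t3, the ETO relative used with GATA1 and TAL1, went from 4.78 in PreMegE to 3.50 in CFUe and 2.71 in Ter119, and remained above GMP (2.30) and Mac1Gr1 (0.45). Runx1t1 was well above background on every array in KLS and Ter119, at means of -4.12 and 0.20, and on 1 of 3 in PreMegE. Of the partner genes, Gata2 had its highest mean in PreMegE (5.20) and fell by 2.96 on the log2 scale to CFUe, while Lyl1 and Lmo2 were not called at that step.

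Genes with known FLI1, ETS or RUNX sites were counted at the step where the factors fell. All 5 megakaryocyte genes tested were called lower from PreMegE to CFUe. Among them were Itga2b, the CD41 integrin chain (-5.82), Pf4 (-5.07), Gp9 (-2.81) and Gp1ba (-1.35), and CD41 was one of the antigens of the lineage depletion. Of 4 myeloid genes 3 were called lower (Mpo, Elane and Csf3r), and of 6 endothelial and stem genes 3 (Tek, Kdr and Pecam1), beside 25.9% of all genes called. The lists hold lineage markers, and the counts say nothing of binding. From CFUe to Ter119, 2 of the 5 megakaryocyte genes were called higher (Itga2b at 1.28 and Gp9 at 1.05) and 2 lower (Gp1ba, at least 15.8-fold, and Pf4, -2.55). Fli1 and Erg were 20.5-fold and 21.9-fold higher, Erg with 1 of 3 CFUe arrays well above background. All 4 myeloid genes were called higher at that step, where 61.2% of all genes were called and all 10 granulocytic markers rose, among them Csf3r by at least 176-fold and Csf1r by 5.98 on the log2 scale.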

How the data were processed

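Total RNA from the 7 sorted fractions was hybridised with Cy3 to 21 Agilent whole mouse genome arrays. The deposited scanner files hold a background-corrected intensity per spot, on a linear scale, and flags, all written by the authors' run of Agilent Feature Extraction (version 10.7.1.1). A deposited series table, on a log2 scale and normalized across arrays by the authors, served as an alternative. Outlier spots (80 to 283 per array) were left out, no spot was saturated, and spots of a probe were averaged to 41174 probes. Levels are log2 intensity minus the 75th percentile of the array. Symbols came from RefSeq accessions (26690 probes, 64.8%). The files name the build mm9 and give no probe positions; promoter windows come from a GRCm38.p6 table. Probes well above background on 3 arrays of a fraction (29527) went into limma (version 3.58.1, R 4.3.3; lmFit and eBayes, two-sided, no block, 14 residual degrees of freedom). P-values were adjusted by Benjamini-Hochberg over all of them, within each comparison. A fold against a fraction with no array well above background is a lower bound, set per array at the higher of the dim signal and the lowest signal well above background. Between 56.4% and 77.4% of probes were well above background per array, and the number of arrays limits the precision. On simulated data for PreMegE vs KLS with 29527 probes, 179 of 200 probes changed by 2 on the log2 scale were called, with 7 false calls. The 10 genes and the lists were chosen with earlier results of these data known. Named genes are the 10 genes, the listed ETS genes, corepressors, partners and target genes, and the 3 genes most correlated with each of the 10 over the fraction means. Elk1, Tal1 and Cd68 matched no probe, and Elf3, Elf5, Etv2, Spdef and Gp6 were too dim to test. The values of 1 listed gene are not reported here. Alternatives were quantile scaling, spike-in scaling (7 of 10 probes), normexp with an offset of 50, the series table, no filter on dim probes, slide or replicate number as a block, the compared fractions alone, no minimum fold, the second brightest probe and leaving out each array. Applying these to the differences between the sides, leaving out Ter119, and the 2 settings on Y-linked transcripts (as a block over arrays with all 4 Y-linked genes well above background or not, and only the CFUe and PreGM arrays alike in them to the fraction compared) were chosen after seeing the data. Figures used Python 3.11.15 and matplotlib 3.10.9.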

Additional observations from a re-analysis of the deposited data

Results flagged for a closer look

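The change at the second step (PreMegE to CFUe against PreGM to GMP) differed between the erythroid and the myeloid side for 6 of the 10 genes, by limma's test of the difference itself. Of all probes, 20.2% were called there. Erythroid minus myeloid change was -3.46 or lower for Runx2, with CFUe at its bound since no CFUe array was well above background (adjusted p = 6.82e-06 on the dim signals), -4.54 for Fli1 (5.21e-07), -3.93 for Erg (0.000654), -2.17 for Cbfb (0.000183), -1.93 for Etv6 (9.91e-06) and -1.32 for Ets1 (0.000139). At the third step (CFUe to Ter119 against GMP to Mac1Gr1) it was at least 4.17 for Runx2 (5.58e-07, likewise), 3.29 for Fli1 (6.74e-06), 2.62 for Erg (0.00736) and 2.28 for Cbfb (4.89e-05). The third-step count of 4 of the 10 was close to the 39.9% of all probes called there. Both tests use the CFUe arrays, with opposite sign. Without CFUe replicate 3 the same counts of 6 and 4 were called, and the differences for Fli1 were -5.12 and 3.87. Taking only the CFUe and PreGM arrays that share the Y-linked transcripts of the fraction beside them leaves CFUe replicate 3 alone on the erythroid side. The Erg difference at the third step was then 0.65, short of 2-fold, so the set of genes there was not the same. The third step carries the granulocytic and lymphoid transcripts of Ter119 and the lymphoid ones of Mac1Gr1, whose part was not tested.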

How the results depend on the processing

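The 8 genes called lower from PreMegE to CFUe, and the count of 8 in CFUe against GMP, stayed within 1.5 times (7 to 9 and 6 to 10) under every alternative that gave a count, which the second brightest probe did not, since Erg and Ets2 have 1 probe. The number of genes called from KLS to PreMegE was 2 with spike-in scaling and 4 with no minimum fold change. From KLS to PreGM it was 2 with spike-in scaling, 1 with the slide as a block and 3 with no minimum fold change, and from PreGM to GMP it was 1 with no filter on dim probes, 1 with the slide as a block, 1 without the Ter119 arrays in the fit, 1 with the Y-linked transcripts as a block, 1 within arrays alike in these and 6 with no minimum fold change. PreMegE against PreGM gave 0 with the series table, 0 with the slide as a block and 0 within arrays alike in Y-linked transcripts (limma; Runx2 at adjusted p = 0.06, 0.091 and 0.254), and Ter119 against Mac1Gr1 gave 6 with spike-in scaling, 5 with the Y-linked transcripts as a block and 5 with no minimum fold change. The differences between the sides numbered 10 at the second and 7 at the third step with spike-in scaling, and 7 at the third with no minimum fold change. Leaving out each array in turn gave 1 to 1 calls for PreMegE against KLS, 8 to 8 for CFUe against PreMegE and against GMP, 7 to 8 for Ter119 against CFUe, 0 to 1 for PreGM against KLS, 0 to 1 for GMP against PreGM, 6 to 7 for Mac1Gr1 against GMP, 0 to 1 for PreMegE against PreGM, 2 to 4 for Ter119 against Mac1Gr1, and 6 to 7 and 4 to 5 for the differences between the sides. Except where given, the cause was not tested. Of 2098 values of single genes, 103 changed sign, 83 of them with both values at an adjusted p of 0.05 or more.

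Spike-in scaling turned Runx1 (-0.10), Cbfb (-0.42), Fli1 (-0.19) and Elf1 (-0.33) in PreMegE against KLS, Ets2 (-0.47) in CFUe against PreMegE, Cbfb (-0.018), Ets2 (-0.26) and Elf1 (-1.33) in Ter119 against CFUe, and Cbfb (-0.34) and Elf1 (-0.49) in PreGM against KLS. It turned Runx1 (0.22), Runx2 (0.24), Cbfb (0.94), Etv6 (0.66) and Elf1 (0.52) in GMP against PreGM, Runx2 (-1.40), Fli1 (-0.97), Erg (-0.20) and Ets2 (-0.39) in Mac1Gr1 against GMP, Runx3 (0.010) and Erg (0.032) in PreMegE against PreGM, and Ets2 (0.13) in the difference at the third step. Quantile scaling turned Cbfb in PreMegE against KLS (-0.18), PreGM against KLS (-0.051) and Ter119 against Mac1Gr1 (0.27), Ets2 in CFUe against PreMegE (-0.040), Elf1 in PreGM against KLS (-0.0086) and Fli1 in GMP against PreGM (-0.074). The series table turned the same values, to -0.17, -0.038, 0.25, -0.032, -0.017 and -0.040, and normexp turned Ets2 in CFUe against PreMegE (-0.0061). With the slide as a block, Erg turned in PreMegE against KLS (0.52), PreGM against KLS (0.26) and PreMegE against PreGM (0.26), Runx2 in PreGM against KLS (0.39), Mac1Gr1 against GMP (-0.14) and Ter119 against Mac1Gr1 (0.30), Fli1 in PreGM against KLS (0.46) and GMP against PreGM (-0.11), Cbfb in PreMegE against PreGM (0.0066) and Ter119 against Mac1Gr1 (0.34), and Runx3 in the latter (0.40). With the Y-linked transcripts as a block, Ets2 turned in CFUe against PreMegE (-0.32), Runx2 (0.32), Fli1 (0.62) and Erg (0.46) in PreGM against KLS, Cbfb in GMP against PreGM (0.17), Runx3 (0.011), Fli1 (-0.35) and Ets2 (0.059) in PreMegE against PreGM, and Runx3 in Ter119 against Mac1Gr1 (0.18). Within arrays alike in these transcripts, Ets2 turned in CFUe against PreMegE (-0.12), Fli1 in PreGM against KLS (0.10), Runx3 (0.45) and Ets2 (0.26) in PreMegE against PreGM, and Runx3 in the difference at the second (0.504) and the third step (-0.11).

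On the second brightest probe Runx1 turned in Ter119 against CFUe (1.58), Mac1Gr1 against GMP (1.08), PreMegE against PreGM (0.064), CFUe against GMP (0.32), Ter119 against Mac1Gr1 (0.82) and the difference at the second step (0.26), and Runx3 in Ter119 against CFUe (1.52), Mac1Gr1 against GMP (0.18), CFUe against GMP (0.052), Ter119 against Mac1Gr1 (1.40) and the difference at the second step (0.12). Cbfb turned in Mac1Gr1 (0.32) and Ter119 against Mac1Gr1 (0.013), Elf1 in Mac1Gr1 (0.015) and Etv6 in PreGM against KLS (0.060). Replicate numbers did not pair the arrays: same-numbered arrays correlated at a median of 0.0024 (-0.43 to 0.369) in their deviations, and 7 of 21 were closest to their own number. Where leaving out 1 array turned a value, the range over arrays was -0.025 to 0.115 for Cbfb and -0.016 to 0.204 for Elf1 in PreMegE against KLS, -0.045 to 0.124 for Ets2 in CFUe against PreMegE, -0.169 to 0.0046 for Runx1 and -0.094 to 0.178 for Elf1 in Ter119 against CFUe, -0.084 to 0.075 for Fli1, -0.283 to 0.204 for Ets2 and -0.020 to 0.200 for Elf1 in PreGM against KLS, and -0.023 to 0.110 for Fli1 in GMP against PreGM. In PreMegE against PreGM it was -0.440 to 0.0062 for Runx3, -0.230 to 0.00241 for Erg, -0.033 to 0.204 for Ets1 and -0.045 to 0.066 for Elf1, in Ter119 against Mac1Gr1 -0.154 to 0.050 for Runx1 and -0.136 to 0.040 for Runx3, and in the difference at the second step -0.224 to 0.221 for Runx3. With the replicate number as a block the calls from PreMegE to CFUe were 8, and no call changed.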
